A study of Mus musculus with 23 samples.

Results

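Crypt and villus epithelial cells of the mouse small intestine were compared at postnatal day 3 (P3). The comparison used the 6 P3 libraries of 23 in the series, 3 labelled crypt and 3 labelled villus, chosen by their labels alone. All animals were CD1 mice, an outbred stock, with no treatment or engineered allele named in the labels. The tissue was the epithelium of the middle part of the small intestine, released with EDTA and sorted by flow cytometry. Crypt stands for Epcam-positive, CD44-positive cells and villus for Epcam-positive, CD44-negative cells, so each population is a sort gate that can hold several cell types, not a dissected compartment. The other libraries are the same populations at postnatal days 0, 6 and 10 (P0, P6 and P10). They share the estimate of the spread with the P3 libraries and serve to show where P3 differs. The labels do not say whether replicates were separate animals, litters or pools, so p-values measure only the spread between these libraries, which may be technical.

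The intestinal epithelium renews itself from stem cells at the base, which are kept dividing by Wnt signals and give rise to absorptive enterocytes and to secretory goblet, Paneth, enteroendocrine and tuft cells. In the newborn mouse the epithelium between the villi folds into crypts during the first weeks of life, and Paneth cells mature late. Neonatal enterocytes digest milk fat and lactose at their brush border and, in the lower part of the small intestine, also take up milk protein whole by endocytosis and break it down in lysosomes.

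The P3 crypt libraries held 25792789 to 27890774 counts and the P3 villus libraries 24857328 to 31948981. Mitochondrially encoded genes held 6.14% to 9.13% of the crypt counts and 9.11% to 11.4% of the villus counts, and the 50 most counted genes 15.6% to 18.3% and 22.7% to 25.3%. These shares moved with the populations. With the mitochondrially encoded genes left out, 3103 genes were higher in crypt and 2456 lower, against 2707 and 2775 with them. Principal component 1 of the 6 libraries (56.2% of the variance of log2 CPM, the counts of a gene set to a common library size after TMM scaling) separated crypt from villus. Component 2 (23.2%) set replicate 2 of both populations apart from the other libraries.

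At P3 crypt cells carried higher levels of stem cell, Wnt target, DNA replication, mitosis and ribosome biogenesis genes, and villus cells higher levels of genes for fat, sugar and peptide absorption, the brush border, lysosomes, interferon-induced proteins and goblet cells. Of 16535 genes tested, 5482 passed an adjusted p of 0.05 (33.2%), 2707 of them higher in crypt (16.4%) and 2775 lower (16.8%). The median difference over all genes was 0.03 on the log2 scale. Among the genes that passed, 1342 were at least 2-fold higher in crypt and 1549 at least 2-fold lower, and 60 and 59 differed by at least 8-fold. The CPM ranges of the 2 populations did not overlap for 6822 genes (41.3%). In these bulk libraries fewer cells of a type and less RNA per cell cannot be told apart. Scaling by library size alone moved the median of all genes to 0.37 and gave 5011 genes higher and 1510 lower, so that 76.8% of the calls were higher in crypt in place of 49.4%. Differences below are log2 values, crypt minus villus, under TMM scaling, with the standard error after ±. CPM is not corrected for gene length and is compared only within a gene.

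**Figure D1:**
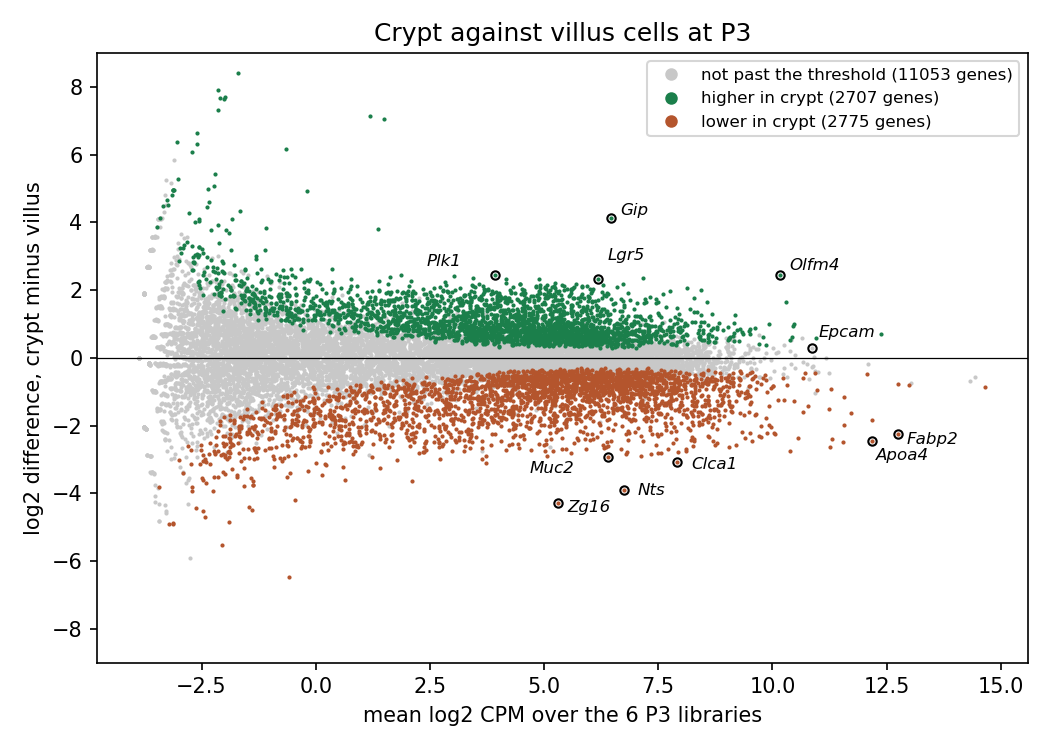
Each point is a gene, with its mean log2 CPM over the 6 P3 libraries on the horizontal axis and its log2 difference, crypt minus villus, on the vertical axis. The 2707 genes higher in crypt and the 2775 lower lie on both sides of 0 over the whole range of levels; Gip is the highest and Zg16 the lowest of the circled genes.

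Among well counted genes (mean log2 CPM of at least 3) whose ranges did not overlap, the hormone gene Gip was the highest in crypt, followed by the mitotic kinase gene Plk1 and the stem cell gene Olfm4. Pcdh8, a protocadherin gene, had 16.1, 20.0 and 19.9 CPM in the crypt libraries and 3.57, 3.83 and 3.11 in the villus libraries (2.41 ± 0.36, adjusted p = 5.89e-05). Clca3b, of the family of calcium-activated chloride channel regulators, had 277, 318 and 403 CPM in crypt and 47.0, 56.0 and 91.8 in villus (2.36 ± 0.25, adjusted p = 2.21e-06). Iqgap3, a scaffold gene of dividing cells, was higher by 2.36 ± 0.32 (adjusted p = 1.99e-05). In these genes every crypt library lay above every villus library. At the other end stood the goblet cell gene Zg16 and the hormone gene Nts, followed by St3gal5, the enzyme that makes the ganglioside GM3. St3gal5 had 6.76, 4.56 and 2.64 CPM in crypt and 37.6, 42.8 and 40 in villus (-3.11 ± 0.68, adjusted p = 0.00165). Susd2, a gene of a membrane protein, was lower by -3.00 ± 0.77 (adjusted p = 0.00554). Hyal5, of the hyaluronidase family, was lower by -2.91 ± 0.68 (adjusted p = 0.00287), and Bbox1, the last enzyme of carnitine synthesis, by -2.80 ± 0.65 (adjusted p = 0.00249).

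The sort genes were read first, as a check of the labels and not as a finding. Cd44 had 50.6, 67.0 and 88.8 CPM in crypt and 10.3, 13 and 17.7 in villus (2.33 ± 0.37, adjusted p = 9.04e-05). The libraries labelled crypt were the high ones in each case. Epcam, the gene of the epithelial surface protein used to gate both populations, had 1979, 2093 and 2107 CPM in crypt and 1726, 1661 and 1623 in villus. Its difference of 0.30 ± 0.14 did not pass (adjusted p = 0.11), although the ranges did not overlap; it passed under DESeq2 (0.28, adjusted p = 0.0327) and under library size scaling (0.65, adjusted p = 0.00126).

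Stem cell genes were higher in crypt for 16 of 20 listed members (80%, against 16.4% of all genes), with a list median of 1.55. Lgr5, the receptor of R-spondins that marks crypt base stem cells, had 105, 187 and 215 CPM in crypt and 24.9, 34.2 and 41.8 in villus (2.33 ± 0.34, adjusted p = 4.25e-05). Olfm4, a secreted protein of the same cells, had 1946, 3474 and 2862 CPM in crypt and 345, 556 and 629 in villus (2.44 ± 0.41, adjusted p = 0.000151). Both genes were lowest in replicate 1 of each population, and the crypt and villus ranges did not overlap. Smoc2, a matricellular protein gene, had 92.6, 64.8 and 94.3 CPM in crypt and 17.3, 13.2 and 23.2 in villus (2.22 ± 0.25, adjusted p = 3.42e-06). Tnfrsf19 had the largest difference of the list (2.50 ± 0.65, adjusted p = 0.00576), at no more than 1.26 CPM in any library; without villus 3 it was 3.19. Bmi1, a Polycomb gene proposed as a marker of reserve stem cells, had 62.8, 109 and 90.5 CPM in crypt and 67.3, 87.1 and 54.5 in villus. Its ranges overlapped, and it did not pass (0.33 ± 0.29, adjusted p = 0.419). Hopx and Lrig1, on the same list, were among the 16 members higher in crypt. Tert, the telomerase gene, was the only member lower in crypt (-0.82 ± 0.29, adjusted p = 0.0318), and it did not pass without crypt 2 (-0.67), crypt 3 (-0.67), villus 1 (-0.76) or villus 3 (-0.76), nor under library size scaling (-0.47).

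Wnt targets were higher in crypt for 12 of 14 tested members (85.7%, against 16.4% of all genes) and lower for none, with a median of 1.22. Axin2, a feedback inhibitor that Wnt signalling induces, had 69.4, 46.3 and 58.1 CPM in crypt and 20.3, 12.6 and 22.6 in villus (1.65 ± 0.28, adjusted p = 0.000192). Ascl2, the stem cell transcription factor gene, had 11.6, 8.46 and 14.3 CPM in crypt and 3.24, 1.74 and 4.57 in villus (1.83 ± 0.33, adjusted p = 0.000267). Replicate 2 was the lowest of both populations in these genes, and the ranges did not overlap. Ccnd1, the gene of cyclin D1, was higher by 1.57 ± 0.24 (adjusted p = 6.93e-05), and Sp5 by 2.42 ± 0.63 at up to 1.61 CPM (adjusted p = 0.00532). Nkd1, another feedback inhibitor, stayed under 1.3 CPM in every library and did not pass (-0.84 ± 0.57, adjusted p = 0.279).

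Wnt ligands, receptors and inhibitors were less uniform. Over all genes 16.4% were higher and 16.8% lower, beside 36.4% and 9.09% of the receptor and 14.3% and 28.6% of the inhibitor genes. Of 7 tested genes of ligands and their secretion, Wls alone passed without a replicate block, the carrier that brings Wnt proteins to the cell surface. It had 95.6, 133 and 145 CPM in crypt and 52.0, 61.6 and 55.8 in villus (1.14 ± 0.23, adjusted p = 0.000719), with all crypt libraries above all villus libraries. Wnt5a, a ligand gene, had 3.52, 7.14 and 6.64 CPM in crypt and 5.45, 13.5 and 11 in villus (-0.79 ± 0.50, adjusted p = 0.239), and with the block it was lower in crypt (-0.76, adjusted p = 0.0248). Of 11 receptor genes 4 were higher in crypt and 1 was lower (2 lower with the block). Fzd5, a Frizzled receptor gene, had 264, 275 and 292 CPM in crypt and 141, 140 and 123 in villus (1.04 ± 0.27, adjusted p = 0.00562). Fzd4, another Frizzled gene, went the other way, with 39, 40.7 and 33.9 CPM in crypt and 90.7, 81.1 and 65.0 in villus (-1.06 ± 0.16, adjusted p = 4.98e-05). Neither pair of ranges overlapped, so within this receptor family the populations differed in both directions. Fzd7 was higher by 1.0 ± 0.30 (adjusted p = 0.0135), and without crypt 3 it did not pass (0.86) and 2 receptor genes were higher in place of 4. Lgr4 did not pass (0.64 ± 0.28, adjusted p = 0.0866), but did without villus 2 (0.89), under library size scaling (0.99), without mitochondrially encoded genes (0.71), with GC content and length offsets (0.58) and in a paired fit of the P3 libraries alone (0.65). Of 7 tested Wnt inhibitor genes, Apcdd1 and Notum were lower in crypt and Sfrp5 higher. Apcdd1, a membrane inhibitor, had 7.48, 2.51 and 2.58 CPM in crypt and 21.7, 17 and 24.6 in villus (-2.33 ± 0.56, adjusted p = 0.00306), and -3.05 without crypt 1. Notum, the enzyme that removes the lipid from Wnt proteins, differed by -2.32 ± 0.59 (adjusted p = 0.00474) and did not pass without villus 3 (-1.5). Sfrp5, a secreted decoy of Wnt proteins, differed by 2.47 ± 0.71 (adjusted p = 0.0106) at up to 1.81 CPM, and did not pass under limma-voom (adjusted p = 0.104).

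Notch pathway genes were called about as often as all genes. Notch signals between neighbouring cells keep progenitors dividing and set the balance of absorptive and secretory fates. Of 15 tested genes of the pathway, Notch1, Notch2 and Lfng were higher (20%, against 16.4% of all genes) and 2 were lower (13.3%, against 16.8%), a number that fell to between 0 and 1 when any 1 of the 6 P3 libraries was left out. Notch1 had 29.5, 24.8 and 24.8 CPM in crypt and 9.76, 10.0 and 10.6 in villus (1.38 ± 0.25, adjusted p = 0.000323). Notch2 had 22.1, 21.4 and 27.4 CPM in crypt and 11.4, 10.1 and 14 in villus (1.0 ± 0.24, adjusted p = 0.00284). Lfng, the glycosyltransferase gene that modifies Notch receptors, was higher by 1.71 ± 0.34 (adjusted p = 0.000659). All 3 had crypt ranges above the villus ranges. Hes1, the main target of the pathway, had 159, 187 and 145 CPM in crypt and 102, 124 and 72.0 in villus and did not pass (0.72 ± 0.32, adjusted p = 0.091). With the replicate number as a block Hes1 passed (0.74, adjusted p = 0.00178), as it did in a fit of the P3 libraries alone (adjusted p = 0.0352) and under library size scaling (1.08).

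BMP signals restrain stem cells and are stronger towards the villus, and Eph receptors keep crypt cells in place. Of 20 tested BMP and hedgehog genes 4 were higher in crypt and 3 lower (1 lower without crypt 3), with a median of 0.01. These shares of 20% and 15% lie near those of all genes, 16.4% and 16.8%. Bmp7 had 53.3, 33.3 and 32.6 CPM in crypt and 99.3, 86.4 and 105 in villus (-1.29 ± 0.28, adjusted p = 0.00133). Bmp3, a ligand gene of another branch of the family, was higher in crypt (1.02 ± 0.23, adjusted p = 0.00159), as was the hedgehog receptor gene Ptch1 (1.01 ± 0.21, adjusted p = 0.000828). Of 13 Eph and ephrin genes 4 were higher (30.8%) and 2 lower (15.4%). Ephb2, a Wnt target among the receptors, had 60.9, 37.5 and 48.6 CPM in crypt and 22.1, 16.5 and 32.4 in villus (1.05 ± 0.21, adjusted p = 0.000819). Epha4 and Ephb4 were higher as well (1.71 ± 0.30 and 1.35 ± 0.21), whereas Epha1 was lower (-1.05 ± 0.22, adjusted p = 0.00121). The receptors thus split by member, with crypt and villus ranges that did not overlap in each of these 4.

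Cell cycle genes differed in 1 direction. All 32 mitosis genes and all 30 DNA replication genes tested were higher in crypt, against 16.4% of all genes, with medians of 2.07 and 1.52, and none had overlapping ranges. Plk1, the kinase gene that drives entry into and exit from mitosis, had 46.1, 27.1 and 34.6 CPM in crypt and 7.59, 4.70 and 7.40 in villus (2.45 ± 0.23, adjusted p = 5.86e-07). Bub1b, of the spindle checkpoint, had 118, 105 and 113 CPM in crypt and 26.4, 21.7 and 25.6 in villus (2.19 ± 0.19, adjusted p = 3.06e-07). The lowest crypt library stood several times above the highest villus library in both. Kif2c, a kinesin that takes microtubules apart, was higher by 2.32 ± 0.19 (adjusted p = 1.94e-07). Among replication genes Cdc45, part of the replicative helicase, was higher by 1.98 ± 0.23 (adjusted p = 3.63e-06). Mcm5, a subunit of the same helicase, had 101, 57.4 and 77.7 CPM in crypt and 21, 15 and 26.4 in villus (1.91 ± 0.22, adjusted p = 4.18e-06). Mcm3 differed by 1.79 ± 0.18 and Pola1, the catalytic subunit of DNA polymerase alpha, by 1.87 ± 0.28. Villus cells were not without these transcripts: the summed CPM of the mitosis list was 1038 to 1136 in villus and 3899 to 4508 in crypt.

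The promoters of the mitosis genes shared letters that the comparison had not used. Mitotic genes are known to carry CCAAT boxes, bound by the factor NF-Y, and a cell cycle element called CHR, of which TTTGAA is the best known form. RefSeq windows of 250 bases before to 50 bases after the transcript start (build GRCm38.p6) were found for 27 of the 32 genes, and both motifs, on either strand, lay in 18 of them (66.7%). Both lay in 7.12% of the 27025 windows listed, 1 a gene, and in 2 of 25 DNA replication windows (8%) and none of 20 ribosome biogenesis windows. CCAAT, with or without the other motif, was found in 77.8% of the mitosis and 37.9% of all windows, and TTTGAA in 77.8% and 18.1%; neither motif contains the other. CCAAT was also frequent in the DNA replication (60%), stem cell (61.5%) and lipid handling (63.6%) windows, and lay in 39.1% or less of the other lists read. TTTGAA lay in 12%, 7.69% and 18.2% of those 3 lists. Windows were found for 66.9% of all tested genes, 74.5% of those called higher and 74% of those called lower. Both motifs lay in 5.15%, 7.54% and 3.85% of these windows, and TTTGAA in 12.1% of those of all tested genes. These shares leave out the genes without a window, and the genes called higher include the mitosis list. The stretches from 120 bases before to 30 bases after the start are given for 4 mitosis genes with large differences, as examples. These stretches were chosen for holding both motifs, so they cannot show how close to the start the motifs usually lie. They are written 5′ to 3′ on the strand of the gene, with both motifs, or their reverse complements ATTGG and TTCAAA, in capitals.
Kif18b, chr11:102925095-102925244, minus strand: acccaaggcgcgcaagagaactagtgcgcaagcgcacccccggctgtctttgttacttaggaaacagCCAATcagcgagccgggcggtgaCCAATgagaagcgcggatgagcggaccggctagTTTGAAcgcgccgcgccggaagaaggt
Kif11, chr19:37376262-37376411, plus strand: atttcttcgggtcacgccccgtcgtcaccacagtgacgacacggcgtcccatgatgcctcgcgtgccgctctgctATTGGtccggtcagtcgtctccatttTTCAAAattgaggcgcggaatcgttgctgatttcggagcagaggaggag
Cdc20, chr4:118437314-118437463, minus strand: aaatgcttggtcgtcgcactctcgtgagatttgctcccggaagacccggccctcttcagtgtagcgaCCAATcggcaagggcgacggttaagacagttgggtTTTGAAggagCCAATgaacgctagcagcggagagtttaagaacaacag
Aspm, chr1:139454653-139454802, plus strand: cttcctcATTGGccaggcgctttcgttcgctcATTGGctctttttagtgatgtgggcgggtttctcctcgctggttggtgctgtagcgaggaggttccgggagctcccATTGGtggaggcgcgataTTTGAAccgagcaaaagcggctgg
The TTTGAA letters began 19 and 18 bases before the start in Kif11 and Cdc20, and 3 and 6 bases after it in Kif18b and Aspm. These 4 genes of spindle motors (Kif18b, Kif11), a mitotic ubiquitin ligase activator (Cdc20) and a spindle pole protein (Aspm) differed by 2.24 ± 0.27, 2.18 ± 0.28, 2.17 ± 0.28 and 2.15 ± 0.30. A match of letters is a description and shows no binding.

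**Figure D2:**
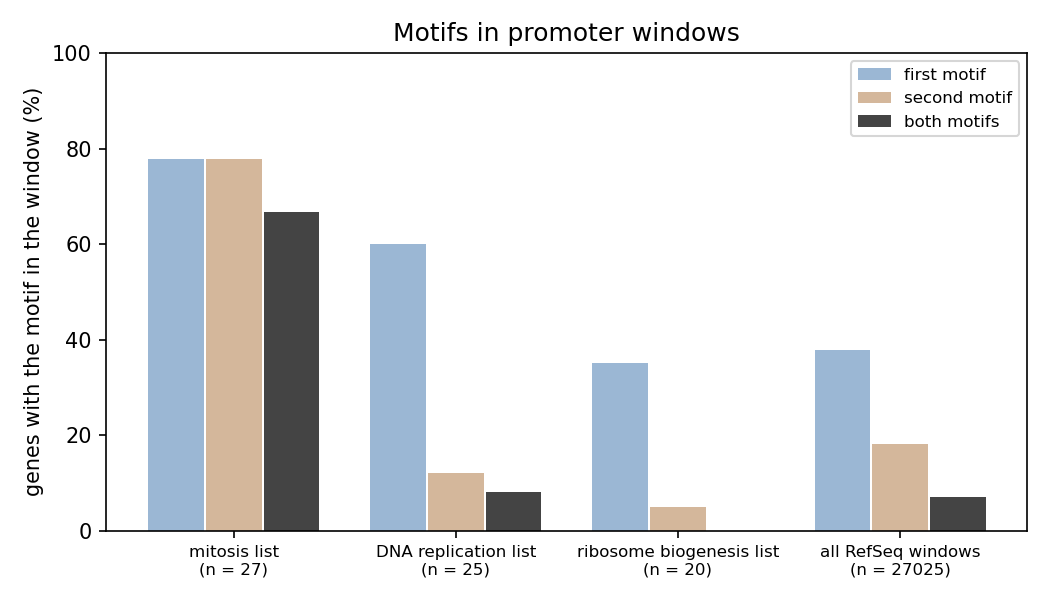
Bars give the share of genes whose RefSeq promoter window holds the CCAAT motif (first), the TTTGAA motif (second) or both, for 3 gene lists and for all windows of the table, with the number of windows in brackets. Both motifs lay in 66.7% of the mitosis windows and in 7.12% of all windows.

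Inhibitors of the cell cycle did not move as a group. Of 12 tested, 3 were lower in crypt (25%, against 16.8% of all genes) and 1 higher (8.33%, against 16.4%). Cdkn1c, an imprinted gene of the inhibitor p57, had 103, 108 and 73.6 CPM in crypt and 527, 608 and 505 in villus (-2.53 ± 0.49, adjusted p = 0.000579). Cdkn2b, of the inhibitor p15, had 19.8, 29.2 and 22.1 CPM in crypt and 56.1, 73.8 and 57.2 in villus (-1.40 ± 0.19, adjusted p = 2.59e-05). Both were higher in every villus library, while Cdkn2c, of the inhibitor p18, was higher in crypt at 4.98 to 6.78 CPM against 1.28 to 2.13 (1.69 ± 0.33, adjusted p = 0.000673). Cdkn1b, of the inhibitor p27, did not pass (0.33 ± 0.22, adjusted p = 0.277), except under library size scaling (0.68).

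Genes that supply growth were also higher in crypt. Of 25 ribosome biogenesis genes 24 were higher and none lower (median 1.04), and of 21 genes of one-carbon metabolism and nucleotide synthesis 18 were higher and none lower (median 1.41). These shares of 96% and 85.7% higher stand beside 16.4% of all genes. Dkc1, the pseudouridine synthase of ribosomal RNA, had 161, 195 and 192 CPM in crypt and 60.3, 71.3 and 62.4 in villus (1.5 ± 0.18, adjusted p = 7.34e-06). Polr1b, a subunit of RNA polymerase I, was higher by 1.41 ± 0.20 (adjusted p = 2.69e-05). Bop1 was the member that did not pass (0.59 ± 0.26, adjusted p = 0.0822); it passed without crypt 2 or villus 3 (0.87 in each case), with the replicate block (0.61, adjusted p = 0.0211) and under library size scaling (0.94). Ppat, the first committed enzyme of purine synthesis, had 60.7, 63.7 and 68.2 CPM in crypt and 19.2, 16.6 and 19.2 in villus (1.81 ± 0.24, adjusted p = 1.79e-05). Cad, which starts pyrimidine synthesis, was higher by 1.81 ± 0.29, the CTP synthase gene Ctps by 1.67 ± 0.18 and the serine synthesis gene Psat1 by 1.78 ± 0.20. The 3 libraries of a population lay close together for these genes, and the ranges did not overlap.

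**Figure D3:**
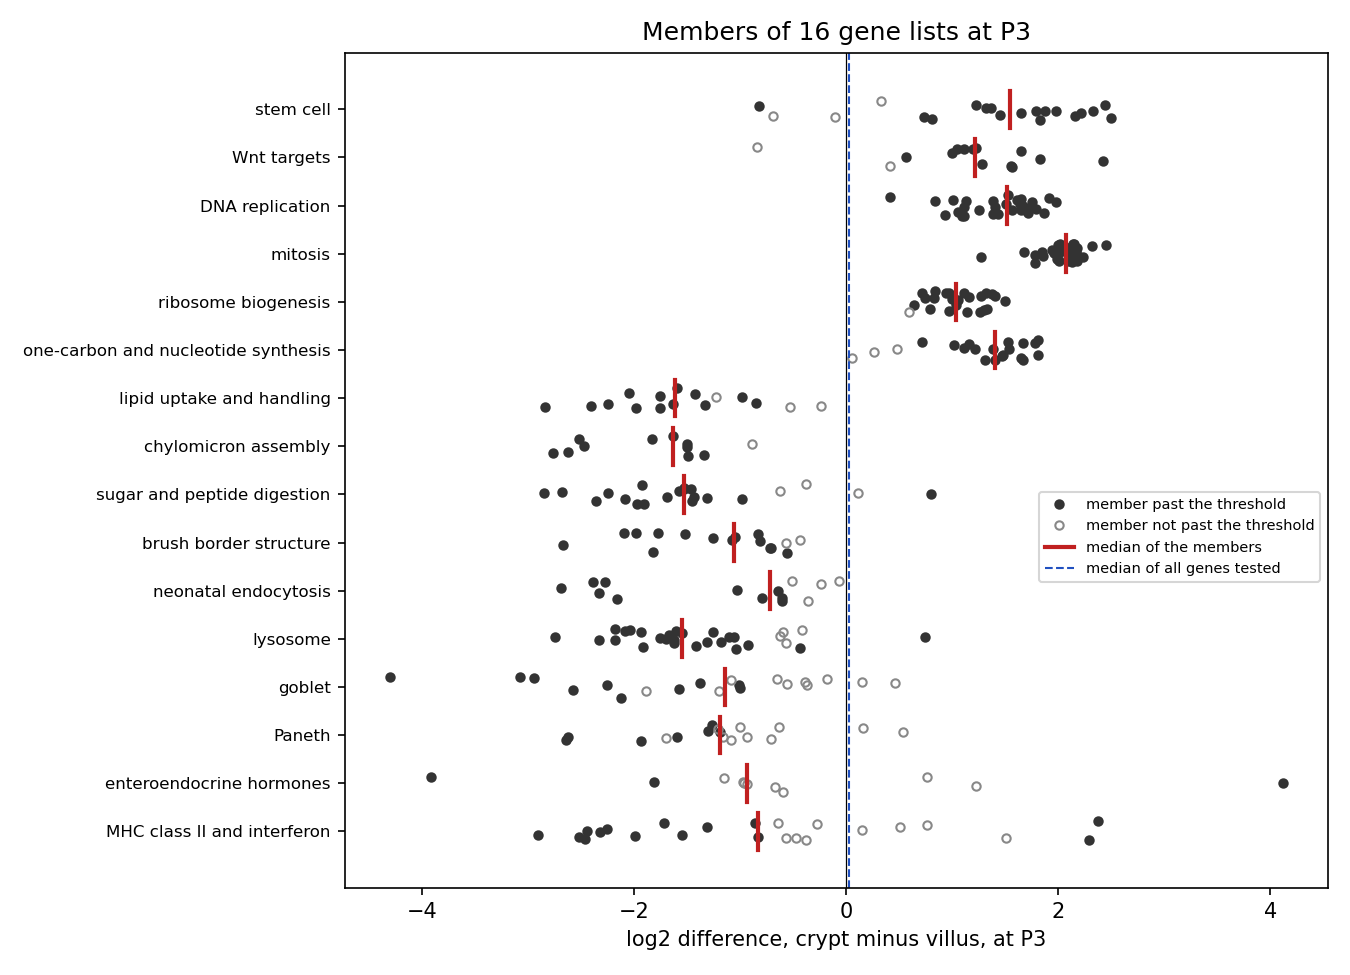
Each point is a tested member of 1 of 16 gene lists, placed at its log2 difference, crypt minus villus; filled points passed the threshold, red bars are list medians and the dashed line is the median of all genes tested. The cell cycle and growth lists lie to the right of 0 (median 2.07 for mitosis) and the absorption lists to the left (median -1.63 for chylomicron assembly).

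Absorptive genes were lower in crypt, and the transcription factors that run the enterocyte program were divided. Of 21 such factors 7 were lower (33.3%, against 16.8% of all genes) and 3 higher (14.3%, against 16.4%), with a median of -0.09; library size scaling turned these counts to 3 lower and 7 higher. Hnf4a, a central factor of the program, had 772, 635 and 711 CPM in crypt and 674, 623 and 623 in villus, with overlapping ranges (0.14 ± 0.15, adjusted p = 0.501); it passed under library size scaling (0.49). Cdx2, the intestinal identity factor, had 273, 183 and 244 CPM in crypt and 260, 177 and 248 in villus (0.03 ± 0.18, adjusted p = 0.92). A p that misses the threshold does not show that the levels are equal. Maf had 189, 217 and 164 CPM in crypt and 731, 812 and 517 in villus (-1.85 ± 0.24, adjusted p = 1.32e-05). Creb3l3, which drives fat and fasting genes, differed by -1.53 ± 0.30 and the bile acid receptor gene Nr1h4 by -1.43 ± 0.22. The vitamin D receptor gene Vdr was higher in crypt (0.88 ± 0.22, adjusted p = 0.00388).

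Genes of fat handling were lower in crypt almost throughout. Of 16 genes of lipid uptake and handling 13 were lower in crypt (16.8% of all genes were) and none higher, with a median of -1.61, and of 11 genes of chylomicron assembly 10 were lower and none higher (median -1.63). Fabp2, the intestinal fatty acid binding protein gene, had 3866, 3641 and 2113 CPM in crypt and 16730, 16729 and 12062 in villus (-2.24 ± 0.37, adjusted p = 0.000145). Fabp1, its liver-type relative, had 1718, 1092 and 644 CPM in crypt and 7159, 5390 and 5677 in villus (-2.40 ± 0.45, adjusted p = 0.000398). Crypt 1 was the highest and crypt 3 the lowest crypt library in both, with every villus library above them. Cd36, a fatty acid transporter gene, had 62.5, 88.6 and 40.1 CPM in crypt and 358, 634 and 377 in villus (-2.84 ± 0.71, adjusted p = 0.00464). Dgat2, an enzyme of the last step of triglyceride synthesis, differed by -2.05 ± 0.43 (adjusted p = 0.001). Apoa4, an apolipoprotein of chylomicrons, had 3357, 1615 and 1337 CPM in crypt and 10695, 7447 and 16739 in villus (-2.47 ± 0.57, adjusted p = 0.00247). Apoa1 had 1483, 995 and 617 CPM in crypt and 5900, 5387 and 7712 in villus (-2.62 ± 0.52, adjusted p = 0.000685). The lowest villus library was above the highest crypt library in these genes. Apoc3 was the lowest of the chylomicron list (-2.76 ± 0.64, adjusted p = 0.00266), and without crypt 1 it differed by -3.42. Scarb1 had overlapping ranges and did not pass (-0.24 ± 0.33, adjusted p = 0.622), nor did Apoa5, which stayed under 0.25 CPM (-0.89 ± 0.98, adjusted p = 0.526).

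Sugar and peptide digestion followed the same direction, with 17 of 21 tested genes lower in crypt (81%, against 16.8% of all genes) and a median of -1.53. Slc2a2, the glucose transporter GLUT2, had 57.1, 43.3 and 26.6 CPM in crypt and 300.4, 366 and 252 in villus (-2.85 ± 0.67, adjusted p = 0.00292). Lct, the gene of lactase, which splits milk sugar, had 708, 471 and 338 CPM in crypt and 2413, 2053 and 2679 in villus (-2.24 ± 0.44, adjusted p = 0.0006). Crypt 1 was again the highest crypt library in both. Ace, a peptidase gene, differed by -2.68 ± 0.73 (adjusted p = 0.00829) and by -3.42 without crypt 1. Mgam, a maltase gene, had 395, 523 and 539 CPM in crypt and 441, 488 and 417 in villus and did not pass (0.11 ± 0.17, adjusted p = 0.66), except under library size scaling (0.46). Anpep, of aminopeptidase N, did not pass (-0.62 ± 0.27, adjusted p = 0.0911), but did with the replicate number as a block (adjusted p = 0.0148) and in a fit of the P3 libraries alone (adjusted p = 0.0214). The glutamate transporter gene Slc1a1 was the member higher in crypt (0.80 ± 0.28, adjusted p = 0.0327), a call lost without crypt 1 (0.61), villus 2 (0.63) or villus 3 (0.80). The letters CAAAGTCCA, a form of the site of HNF4 factors, were found on either strand in 3 of the 19 promoter windows of this list (15.8%). They lay in 1 of 13 windows of the brush border list and in 0.477% of all windows. None of the 9 chylomicron, 11 lipid handling and 23 lysosome windows held them.

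Brush border structure genes were lower in crypt for 14 of 16 members (87.5%, against 16.8% of all genes) and higher for none (median -1.06). Pdzk1, a scaffold of transporters in the microvillus membrane, had 50.3, 31.3 and 17.7 CPM in crypt and 216, 205 and 212 in villus (-2.67 ± 0.53, adjusted p = 0.000711). Pls1, which bundles actin in microvilli, had 529, 573 and 394 CPM in crypt and 2038, 2348 and 1528 in villus (-1.98 ± 0.36, adjusted p = 0.000293). Cdhr5, a cadherin that links microvilli, differed by -2.09 ± 0.39 (adjusted p = 0.000423). Every villus library lay above every crypt library for these 3 genes.

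Genes of the neonatal uptake of milk protein were lower in crypt too. Of 14 tested genes of endocytosis 10 were lower (5 without crypt 2), and of 29 lysosomal genes 24, with medians of -0.71 and -1.55. These shares of 71.4% and 82.8% lower stand beside 16.8% of all genes. Cubn, the large receptor of protein uptake, had 135, 67.3 and 56.7 CPM in crypt and 631, 453 and 584 in villus (-2.69 ± 0.53, adjusted p = 0.000704). Its adaptor Dab2 had 154, 149 and 109 CPM in crypt and 730, 838 and 595 in villus (-2.39 ± 0.40, adjusted p = 0.000147). Fcgrt, the neonatal Fc receptor gene, through which maternal antibodies cross the epithelium, had 711, 276 and 254 CPM in crypt and 2193, 1299 and 2760 in villus. Its difference was -2.33 ± 0.56 (adjusted p = 0.00314) and -2.98 without crypt 1, the highest crypt library for all 3 genes. Lrp2, the partner receptor of Cubn, differed by -2.27 ± 0.72 (adjusted p = 0.02) and by -3.64 without crypt 1; it did not pass without crypt 2 (-1.83), crypt 3 (-1.88) or villus 1 (-1.7). Among lysosomal enzymes the lipase gene Lipa differed by -2.18 ± 0.48 and the protease gene Ctsh by -2.18 ± 0.45. Lipa had 144, 101 and 73.2 CPM in crypt and 571, 492 and 383 in villus (adjusted p = 0.00178). Gm2a, a cofactor of ganglioside breakdown, was the lysosomal gene higher in crypt (0.75 ± 0.24, adjusted p = 0.0204) and did not pass without crypt 3 (0.63), villus 1 (0.72) or villus 2 (0.66).

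Newborn enterocytes also make glucose and, in the suckling period, hold enzymes of the urea cycle and of ketone body synthesis. Of 21 such genes 9 were lower in crypt (42.9%, against 16.8% of all genes) and 1 higher (4.76%, against 16.4%). Pck1, the rate-limiting enzyme of gluconeogenesis, had 605, 604 and 295 CPM in crypt and 2211, 2764 and 2089 in villus (-2.23 ± 0.48, adjusted p = 0.00131). Fbp1 and G6pc, later steps of the same pathway, differed by -2.41 ± 0.49 and -2.31 ± 0.64. Ass1, of arginine synthesis, was lower by -2.19 ± 0.59 (adjusted p = 0.00801). Cps1, which starts the urea cycle, went the other way, with 6270.2, 7215 and 7017 CPM in crypt and 4191, 4458 and 3881 in villus (0.71 ± 0.26, adjusted p = 0.0396). That call was lost without crypt 2 (0.75), crypt 3 (0.69), villus 1 (0.71) or villus 3 (0.66).

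**Figure D4:**
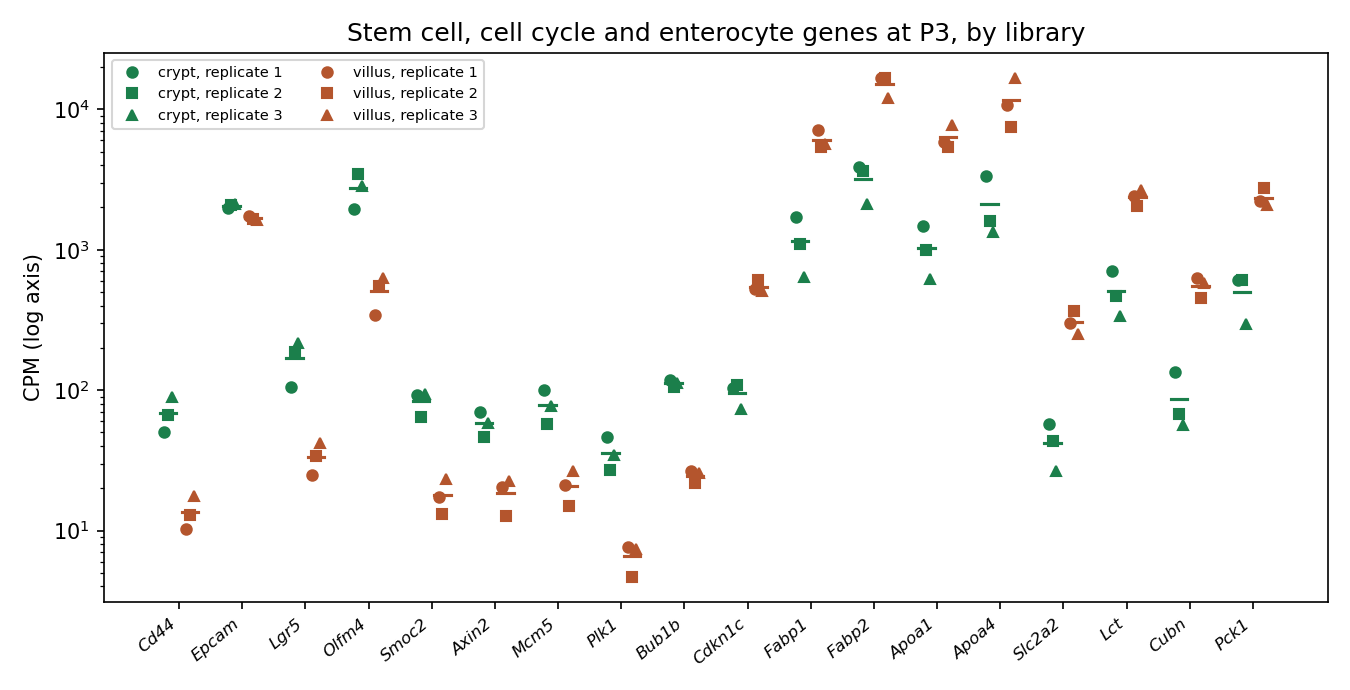
CPM on a log axis for 18 genes in each P3 library (green crypt, orange villus; marker shape gives the replicate, bars the mean of 3). Stem cell and cell cycle genes sit higher in all crypt libraries, Epcam at 1623 to 2107 CPM in all 6, and Cdkn1c and the enterocyte genes higher in all villus libraries; levels of different genes cannot be compared, as CPM is not per length.

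Goblet cell genes were lower in the CD44-positive population. Goblet cells make mucus, and 10 of 20 listed genes were lower in crypt (50%, against 16.8% of all genes) and none higher (median -1.14). With the replicate block 13 were lower and 1 was higher. Zg16, a lectin of the mucus layer, had 10.9, 7.11 and 9.02 CPM in crypt and 179, 150.2 and 203 in villus (-4.30 ± 0.65, adjusted p = 7.45e-05). Muc2, the gel-forming mucin gene, had 35.5, 24.8 and 31.7 CPM in crypt and 267, 179 and 258 in villus (-2.94 ± 0.29, adjusted p = 7.65e-07). Clca1, a secreted mucus protease gene, had 87.3, 98.9 and 66.0 CPM in crypt and 712, 727 and 681 in villus (-3.07 ± 0.28, adjusted p = 5.29e-07). These mature goblet products were several times higher in every villus library than in any crypt library. Fcgbp, another mucus protein, differed by -2.57 ± 0.29 (adjusted p = 3.42e-06). Spink4 did not pass (-1.08 ± 0.42, adjusted p = 0.0565), but did without villus 1 (-1.27), under DESeq2 (-1.10) and with the replicate block (-1.01, adjusted p = 0.00789).

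Of 17 tested Paneth cell genes 7 were lower in crypt (41.2%, against 16.8% of all genes) and none higher (median -1.19). The count of lower genes was 11 with the replicate block, and 4, 4, 3 and 3 without crypt 1, crypt 2, crypt 3 and villus 3. Itln1, an intelectin shared with goblet cells, had 176, 227 and 247 CPM in crypt and 1035, 1291 and 1672 in villus (-2.62 ± 0.34, adjusted p = 1.38e-05). Nupr1 had 2.15, 2.01 and 1.92 CPM in crypt and 10.1, 12.8 and 15 in villus (-2.64 ± 0.70, adjusted p = 0.00642). Reg3g, an antibacterial lectin gene, had 28.9, 84.2 and 32.7 CPM in crypt and 63.5, 197 and 76.9 in villus, with replicate 2 the highest of both populations. Its ranges overlapped and it did not pass (-1.21 ± 1.08, adjusted p = 0.426), whereas villus was higher within each same-numbered pair and the blocked fit called it (-1.20, adjusted p = 5.99e-05). The related Reg3b behaved alike (-1.0 ± 1.16, adjusted p = 0.554; blocked adjusted p = 0.00438). Lyz1, the lysozyme gene of Paneth cells, had 5.43, 7.84 and 5.09 CPM in crypt and 15.3, 9.66 and 9.84 in villus. It did not pass (-0.93 ± 0.42, adjusted p = 0.101), but did with the block (adjusted p = 0.0112) and in a fit of the P3 libraries alone (adjusted p = 0.0411). Of the defensin genes listed, 5 had no count in any P3 library.

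Enteroendocrine hormones split between the populations by hormone. Of 11 tested members, 10 hormone genes and the lineage factor gene Pax4, Gip was higher in crypt, Nts and Gcg were lower, and the rest did not pass. The shares of 9.09% higher and 18.2% lower stand beside 16.4% and 16.8% of all genes. Gip, the gene of the glucose-dependent insulinotropic polypeptide, had 501, 273 and 397 CPM in crypt and 20.7, 12.2 and 34.5 in villus (4.12 ± 0.66, adjusted p = 0.000135). Nts, of neurotensin, had 39.8, 24.7 and 22 CPM in crypt and 504, 530.1 and 268 in villus (-3.91 ± 0.64, adjusted p = 0.000154). The 2 hormones were thus each more than 10-fold apart, in opposite directions, in the same 6 libraries. Gcg, of glucagon and GLP-1, had 25.5, 31.4 and 17.4 CPM in crypt and 87.4, 104 and 68.5 in villus (-1.81 ± 0.38, adjusted p = 0.000985). Cck had 9.60, 9.62 and 8.03 CPM in crypt and 14.9, 21.4 and 24.3 in villus and did not pass (-1.15 ± 0.56, adjusted p = 0.124). Pyy (-0.93 ± 0.64) and Sst (0.76 ± 0.60) did not pass either. In a fit of the P3 libraries alone Cck (adjusted p = 0.00812) and Pyy (adjusted p = 0.0367) were lower in crypt, and for both genes every villus library lay above every crypt library. Of 20 genes of the shared secretory machinery and lineage factors 1 was higher (5%) and 2 were lower (10%), against 16.4% and 16.8% of all genes. The 2 numbers ranged from 0 to 2 and 0 to 3 when single P3 libraries were left out (1 lower with the block). Chga, of chromogranin A, differed by -1.55 ± 0.46 (adjusted p = 0.0132) and did not pass without crypt 2 (-1.45), crypt 3 (-1.32) or villus 2 (-1.37).

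Of 10 tested genes of the tuft cell list 3 were higher in crypt and 2 lower (1 lower without crypt 1, crypt 2, crypt 3, villus 1 or villus 3). These shares of 30% and 20% stand beside 16.4% and 16.8% of all genes. Pou2f3, their lineage factor gene, was higher in crypt at 0.786, 0.386 and 0.793 CPM against 0.123, 0.102 and 0.209 (2.11 ± 0.52, adjusted p = 0.00352). Hpgds, a prostaglandin D synthase gene on the same list, had 63.9, 20.0 and 12.4 CPM in crypt and 238, 165 and 114 in villus (-2.42 ± 0.62, adjusted p = 0.00525; -3.42 without crypt 1). The 2 genes were on opposite sides, and Hpgds was highest in replicate 1 of both populations.

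**Figure D5:**
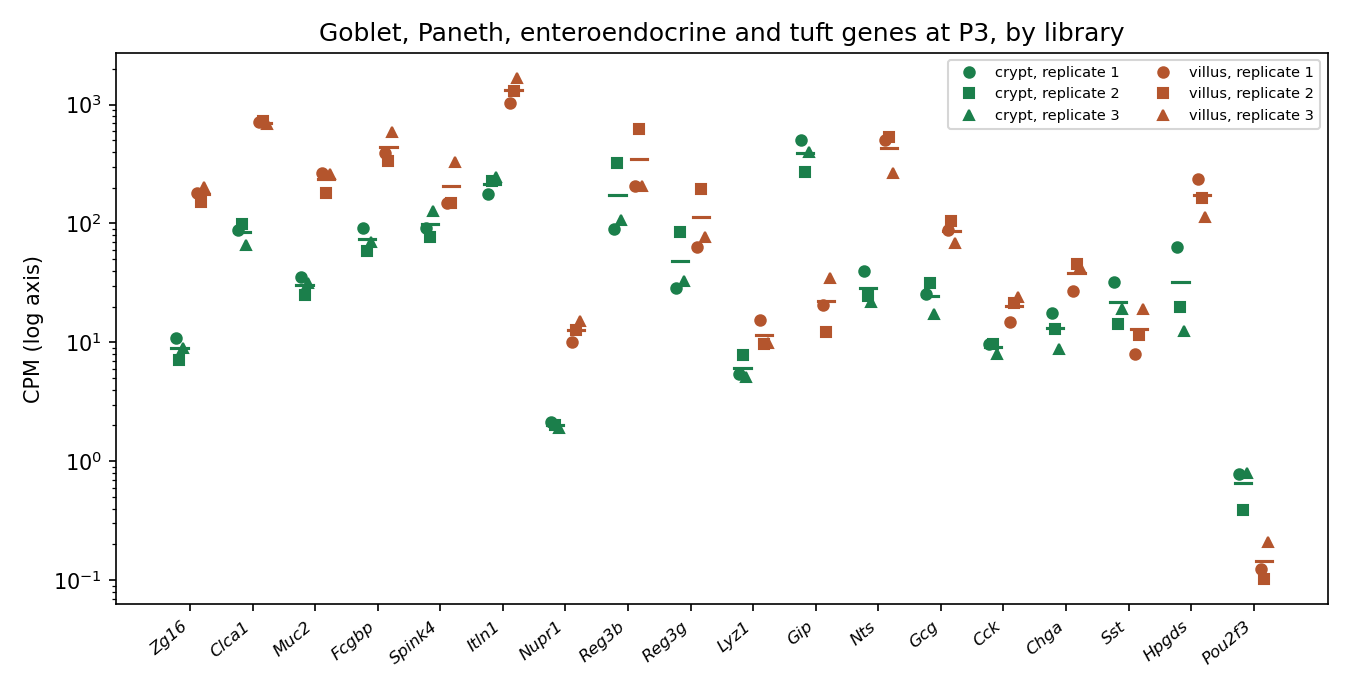
CPM on a log axis for 18 genes of secretory cells in each P3 library (green crypt, orange villus; marker shape gives the replicate, bars the mean of 3). Gip stands at 273 to 501 CPM in crypt and 12.2 to 34.5 in villus, Nts the other way, and Reg3b and Reg3g are highest in replicate 2 of both populations.

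Interferon-induced genes were higher in villus. Of 23 tested genes of antigen presentation and the interferon response 12 were lower in crypt and 2 higher (1 without crypt 3 or villus 1), with a median of -0.83. These shares of 52.2% lower and 8.7% higher stand beside 16.8% and 16.4% of all genes. Ifit1 had 182, 159 and 78.8 CPM in crypt and 1003, 847 and 462 in villus (-2.46 ± 0.41, adjusted p = 0.000169). Ifit3 had 5.19, 6.57 and 3.17 CPM in crypt and 29.6, 51.1 and 30.9 in villus (-2.90 ± 0.57, adjusted p = 0.000644). Replicate 3 was the lowest crypt library for both. Ifi44 differed by -2.44 ± 0.46 and the ubiquitin-like Isg15 by -2.52 ± 0.50 (-3.19 without crypt 1). The 2 genes higher in crypt, Cd74 (2.29 ± 0.64, adjusted p = 0.00937) and H2-Aa (2.38 ± 0.76, adjusted p = 0.0204), belong to MHC class II and stayed under 3 CPM; the other MHC class II genes tested did not pass. H2-Aa did not pass without crypt 3 (1.77) or villus 1 (1.99).

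Markers of other cell types differed in level, and those of immune cells, of neurons and glia and, at a low level, of endothelium moved with the populations. Ptprc, of the leukocyte antigen CD45, had 132 counts over the crypt and 18 over the villus libraries, a ratio of 6.23 after scaling (95% exact interval 3.79 to 10.8, counting error only). Of 13 tested immune genes 8 were higher in crypt (3 with a filter of 1 CPM in 3 libraries, which tests fewer of them). The share of 61.5% higher stands beside 16.4% of all genes. Lyz2, of myeloid lysozyme, was higher by 3.82 ± 0.89 (4.46 without villus 3), Tyrobp by 3.92 ± 0.89 (3.30 without villus 3) and Itgax by 4.34 ± 1.02 (3.73 without crypt 3), each under 2.3 CPM in all libraries. The receptor gene Csf1r was the immune gene lower in crypt, with 18, 8.61 and 5.88 CPM in crypt and 63.0, 63.4 and 87.7 in villus (-2.72 ± 0.62, adjusted p = 0.00241). The whole list of 16 summed to 22.2 to 38.3 CPM in crypt and 68.9 to 93.5 in villus, where Csf1r made up most of it. Cd74 and H2-Aa were higher in the same libraries as most of these immune genes, and the part of immune cells in that result was not tested. None of 13 mesenchymal genes passed, and 1 was higher with the replicate block. Col3a1 had 8.88, 3.24 and 0.595 CPM in crypt and 2.34, 2.15 and 0.244 in villus (1.44 ± 0.88, adjusted p = 0.226; adjusted p = 0.0125 in a paired fit of the P3 libraries alone), and the list summed to 6.94 to 27.9 CPM in crypt and 5.27 to 10.5 in villus. The erythroid list summed to 0.558 to 1.66 CPM over the 6 libraries. The endothelial list summed to 1.64 to 1.95 CPM in crypt and 1.02 to 1.39 in villus, without overlap. The list of neurons and glia summed to 24.8 to 29.9 CPM in crypt and 73.7 to 79.3 in villus, and its part in the results was not tested. Of 5 tested genes of that list 2 were lower (1 without crypt 1, crypt 2, crypt 3, villus 2 or villus 3), and with the block 1 was also higher. That share of 40% lower stands beside 16.8% of all genes. Ret, the receptor of GDNF, was lower in crypt, with 22.1, 15.1 and 11.9 CPM against 68.0, 53.5 and 52.9 (-1.83 ± 0.34, adjusted p = 0.000377).

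Of 23 genes of basement membrane adhesion 3 were higher in crypt (1 without villus 1) and 8 lower (5 without crypt 2, crypt 3 or villus 3). These shares of 13% and 34.8% stand beside 16.4% and 16.8% of all genes. Lama3, a laminin chain gene, had 12.9, 8.92 and 7.44 CPM in crypt and 47.5, 35.8 and 42.9 in villus (-2.11 ± 0.39, adjusted p = 0.000402). Dst, which anchors intermediate filaments at hemidesmosomes, had 21.1, 21.3 and 14.3 CPM in crypt and 75.3, 77.7 and 69.9 in villus (-1.98 ± 0.23, adjusted p = 4.76e-06). Keratins differed by member: Krt20, of differentiated cells, had 33.6, 49.5 and 28.4 CPM in crypt and 109, 136 and 91.4 in villus (-1.59 ± 0.44, adjusted p = 0.00878). Krt19 had 746, 409.5 and 467 CPM in crypt and 216, 131 and 293 in villus (1.34 ± 0.26, adjusted p = 0.000517), whereas Krt18 had overlapping ranges and did not pass (0.03 ± 0.25, adjusted p = 0.946). Among imprinted growth genes and their RNA-binding regulators, Igf2 was lower in crypt with 239, 176 and 137 CPM against 564, 593 and 667 (-1.73 ± 0.47, adjusted p = 0.00797) and the chromatin factor gene Hmga2 higher (1.76 ± 0.22, adjusted p = 8.76e-06).

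The counts of the remaining lists were small and moved with single libraries. Over all genes 16.4% were higher and 16.8% lower. Of 24 cell junction genes 4 were lower in crypt (1 or 2 without crypt 1, crypt 2, crypt 3, villus 1 or villus 2) and 1 higher (0 to 3), and under library size scaling none was lower and 9 were higher. Of 20 genes of actomyosin and small GTPases 3 were lower (0 without crypt 3, 1 without crypt 2 or villus 1) and 2 higher (0 without crypt 3 or villus 1, 1 without villus 2). Of 10 genes of villus tip zonation 3 were lower and 2 higher (1 higher without crypt 3, villus 1 or villus 3, and with the replicate block). Of 15 imprinted growth genes 5 were lower (3 without crypt 1 or villus 2) and 2 higher. Of 7 keratin genes 2 were higher (1 without crypt 1, villus 1 or villus 2) and 2 lower. Of 7 tested mitochondrially encoded genes 3 were lower, 6 with the replicate block, and none without crypt 1, crypt 3, villus 2 or villus 3.

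The difference between crypt and villus at P3 was set against that at the other ages by testing the difference of the differences. No gene passed for P3 against P0, P6 or P10 under edgeR's quasi-likelihood test, with 1696, 272 and 319 genes at an unadjusted p under 0.05 (10.3%, 1.64% and 1.93% of 16535). The lowest adjusted p-values were 0.441, 1 and 0.383, and the median standard error of these contrasts was 0.39, 0.42 and 0.38 against 0.27 for P3 alone. DESeq2 called 3, 0 and 1 genes and limma-voom none. With the replicate block 175 genes (1.06%) passed against P0. The count against P0 rested on 1 library: without P0 villus 1, 1513 genes passed (9.17%), 253 with a larger and 1260 with a smaller crypt minus villus value at P3. Of 40 lists, those with 3 or more members at a smaller value at P3 were cell junctions (9 of 24), basement membrane adhesion (6 of 23), BMP and hedgehog (5 of 20), Wnt receptors (3 of 11), brush border (3 of 16), digestion (3 of 21) and enterocyte factors (3 of 21). The Paneth list had 4 of 17 at a larger value, and no other list had more than 2 members in either direction. Over all genes in the same fit, 1260 of 16508 had a smaller and 253 of 16508 a larger value. Spink4, of goblet and Paneth cells, had a value larger by 1.85 ± 0.43 at P3 (adjusted p = 0.0144) without the library and by 1.40 with it (adjusted p = 0.46). P0 villus 1 had 5.14% of its counts in mitochondrially encoded genes and 19.1% in its 50 most counted genes, against 10.7% and 11.7%, and 25% and 26.2%, in the other P0 villus libraries. Leaving out any other library of P0, P3, P6 or P10 left the 3 counts at 0.

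Beside each other by age, the median difference of the mitosis list was 2.06 at P0, 2.07 at P3, 1.72 at P6 and 1.54 at P10. That of sugar and peptide digestion was -0.63, -1.53, -1.54 and -1.88, and that of lipid handling -1.0, -1.61, -1.5 and -1.94. Slc2a2 differed by -0.97 at P0, -2.85 at P3, -2.45 at P6 and -3.16 at P10, and Cd36 by -0.30, -2.84, -2.41 and -2.88. Lgr5 differed by 2.70, 2.33, 1.45 and 1.43, and Gip by 3.43, 4.12, 3.90 and 3.80. None of these 4 genes passed a test of P3 against another age with all libraries.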

How the data were processed

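Poly(A) RNA of sorted cells was sequenced with a stranded kit, per the labels' protocols. The deposited files hold raw read counts per gene symbol, made with Trim Galore, STAR and HTSeq on build mm9, per the submitters' processing notes; versions, strand setting and handling of multiply aligned reads are not given in the sources used here. Reads in the summary lines (outside any gene 7.62% to 10% at P3) were left out. edgeR 4.0.16 (R 4.3.3) was fitted to all 23 libraries with a coefficient for each of 8 groups, after filterByExpr (minimum count 10, minimum total 15) and TMM scaling. Robust quasi-likelihood F tests (15 residual degrees of freedom, common dispersion 0.0622) were adjusted by Benjamini-Hochberg over 16535 genes, threshold 0.05. Log2 CPM used a prior count of 2. The test was also run on simulated counts with known changes, drawn independently for each library at a single dispersion. Same-numbered P3 libraries deviated together, unlike those counts, and no result here rests on that run. Totals are given with the report; intervals cover counting error only, as reads carry no molecular identifiers.

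Lists of genes (40) and members were chosen with earlier results of these data known. Named are Cd44, Epcam and Lgr5; from the genes called with separate ranges and averaging log2 CPM 3 or more, the 15 highest and the 15 lowest; and from each list the 4 called members with the largest differences and up to 4 uncalled ones of the highest level, of which part are printed. Members that went against their list, Csf1r, Hopx and Lrig1, and Cdc20 and Aspm (shown for their promoters) were chosen after their values were seen. Alternatives were DESeq2 1.42.0, limma-voom (limma 3.58.1), other scalings and filters, GC content and length offsets, no mitochondrially encoded genes, a replicate block, fits of fewer libraries and each library left out.

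Same-numbered P3 libraries of the 2 populations deviated together from their group means (correlations over genes 0.408, 0.637 and 0.273). The third value was little above that of crypt 1 with villus 3 (0.219). The numbers were taken as pairs at P3 from the data alone, as the labels state no pairing. The blocked value is printed where it changes the call of a named gene or moves a list's count by over 1.5 times. Some genes that the rule names are not reported here.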

Additional observations from a re-analysis of the deposited data

How the results depend on the processing

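Of 144 genes recomputed under 18 alternatives, 115 kept their side of the threshold throughout, and no gene that passed under either setting changed direction. The counts of genes at P3 stayed within 1.5 times (2707 higher and 2775 lower), with 1 exception: scaling by library size alone gave 5011 and 1510. Leaving out a P3 library gave 2049 to 2953 higher and 1958 to 2695 lower. With the replicate block within age 3142 genes were higher and 3303 lower at P3. For P3 against P0 the block gave 175 genes (13 higher, 162 lower), and with GC content and length offsets 611 (233 and 378). Same-numbered P0 libraries had correlations of -0.151, 0.373 and 0.032, of which only number 2 was above the lowest P3 value of 0.273. P0 crypt 3 with villus 1, of unlike number, had 0.408. DESeq2 gave 3 genes, all lower, for P0 and 1, lower, for P10. Leaving out a library gave 0 to 1513 genes against P0 (0 to 253 higher, 0 to 1260 lower). The cause was not tested, apart from the libraries that each setting leaves out. The sign of the list median held under every alternative for 29 of 40 lists. Depth limits the precision of genes under 1 CPM.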
